A study of Mus musculus with 8 samples.

Results

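In macrophages grown from mouse bone marrow and profiled by ATAC-seq, 1353 of 76751 regions of open chromatin had a peak in all 4 untreated libraries and in none of the 4 libraries made after lipopolysaccharide (LPS). These regions, called closed regions below, were chosen by their calls alone. Peaks of the 8 lists that overlapped by 1 bp or more were merged into regions, and only chromosomes 1 to 19 were kept, which left 75252 regions. The closed regions were thus 1.8% of the autosomal regions. The loss of the peak under LPS is how they were selected and is described without a test.

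ATAC-seq uses the Tn5 transposase to place sequencing adapters into accessible DNA. The cells were wild type (WT) or had a knockout of Lamin-A (KO), with 2 libraries in each of the groups WT untreated, KO untreated, WT with LPS for 6 h and KO with LPS for 6 h. All were bone marrow cells cultured for 7 days, then frozen in medium with 5% DMSO and thawed before tagmentation, so every group shares the freezing. The study asked how LPS changes chromatin accessibility and what part Lamin-A/C plays. The labels give no age, sex or strain of mouse, no dose of LPS and not the targeted part of Lmna. They do not say whether replicates came from separate animals, so p-values here measure the spread between these samples, which may be technical. The word untreated also stands in the source names of libraries that carry LPS in their titles and treatment fields, which were followed.

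LPS, a component of the outer membrane of Gram-negative bacteria, is sensed by the receptor TLR4, whose adaptors switch on NF-kB, AP-1 and interferon regulatory factors. In macrophages these factors act on enhancers that lineage factors such as PU.1 and C/EBP have already opened, and activation also silences part of the resting enhancer set. Lamin-A and Lamin-C are the products of Lmna that line the inside of the nuclear envelope and hold heterochromatin there.

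The 8 peak lists held 44504 to 59750 peaks that covered 17.9 to 24.96 Mb of the mm10 genome, and KO lists were shorter than the WT lists of the same treatment. Read totals were not used here. For each peak, the deposited fold enrichment and -log10 p together fix a whole-number pileup (the reads stacked at the summit) and the local background it was compared with, and all peaks could be solved. The flat background was 5.53 reads in each of the 8 lists, and the lowest pileup of a peak kept on it was 23 or 24 reads. All 9 macrophage markers examined (Csf1r, Adgre1, Cd68, Itgam, Spi1, Cd14, Lyz2, Mertk and Fcgr1) had a region called in all 8 libraries within 1 kb of a gene end. Such a region was found for 1 of 8 B cell, 2 of 13 T and NK cell, 4 of 12 neutrophil, 3 of 11 dendritic cell, 1 of 10 erythroid and megakaryocyte, 2 of 14 stromal and endothelial and 2 of 13 stem and progenitor markers. These counts do not differ by treatment, because they use regions called in every library. The matching share over all protein-coding genes is not given, so no count is read as above or below that of other genes.

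At 42 of the 1308 closed regions outside chromosome 18, the summit lay in a window from 250 bases before to 50 bases after a RefSeq transcription start (GRCm38.p6, the assembly also called mm10). The part of the window that the region covered is printed below for 8 of them. They were taken from the strongest 12 at protein-coding starts to show immune ligands and receptors, signalling enzymes and the strongest of all, at Sumo3. Each sequence runs 5′ to 3′ along the strand of its gene. Capitals mark matches to the motifs searched, on either strand, and Hgf and Gpr183 had none.

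Sumo3 (a ubiquitin-like modifier), chr10:77613472-77613758, plus strand, with the AGGTCA element of nuclear receptors at -153 and at -42 and the PU.1 core at 40 from the start. This start lies inside the gene, and the summit was 4.61 kb from the nearest gene end.

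Sumo3: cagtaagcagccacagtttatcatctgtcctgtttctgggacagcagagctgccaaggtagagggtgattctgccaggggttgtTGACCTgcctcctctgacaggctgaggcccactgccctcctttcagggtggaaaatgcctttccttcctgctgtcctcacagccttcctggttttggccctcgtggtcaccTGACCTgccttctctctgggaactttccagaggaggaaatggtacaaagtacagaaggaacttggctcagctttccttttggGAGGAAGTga

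Pf4 (platelet factor 4, a chemokine of megakaryocytes and macrophages), chr5:90772220-90772484, plus strand, with the PU.1 core at -10.

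Pf4: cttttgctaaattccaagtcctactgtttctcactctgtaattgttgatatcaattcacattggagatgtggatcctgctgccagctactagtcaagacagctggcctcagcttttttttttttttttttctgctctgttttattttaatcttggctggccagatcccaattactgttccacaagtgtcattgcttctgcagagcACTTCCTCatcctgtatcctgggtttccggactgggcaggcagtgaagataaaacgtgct

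Ccl6 (a chemokine of myeloid cells), chr11:83593038-83593216, minus strand, with the AGGTCA element at -88.

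Ccl6: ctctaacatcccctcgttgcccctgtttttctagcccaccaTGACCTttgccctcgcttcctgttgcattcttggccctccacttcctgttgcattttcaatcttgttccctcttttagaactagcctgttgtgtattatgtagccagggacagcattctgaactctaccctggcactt

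Ccr3 (a chemokine receptor best known on eosinophils), chr9:124021721-124022019, plus strand, with an AP-1 site at -144. This start also lies inside the gene, with the summit 4.04 kb from the nearest gene end.

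Ccr3: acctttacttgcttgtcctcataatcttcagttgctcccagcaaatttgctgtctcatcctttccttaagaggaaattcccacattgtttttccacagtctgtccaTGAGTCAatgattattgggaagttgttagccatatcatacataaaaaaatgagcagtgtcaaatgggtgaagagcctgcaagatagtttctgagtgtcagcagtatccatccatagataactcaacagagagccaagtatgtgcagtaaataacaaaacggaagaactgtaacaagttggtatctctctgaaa

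Gpr183 (a receptor for oxysterols that guides immune cells), chr14:121965144-121965339, minus strand.

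Gpr183: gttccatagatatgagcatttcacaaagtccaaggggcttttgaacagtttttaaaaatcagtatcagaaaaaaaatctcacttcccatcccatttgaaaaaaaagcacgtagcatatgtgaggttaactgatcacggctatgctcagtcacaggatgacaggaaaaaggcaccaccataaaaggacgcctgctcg

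Hgf (hepatocyte growth factor), chr5:16553275-16553544, plus strand.

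Hgf: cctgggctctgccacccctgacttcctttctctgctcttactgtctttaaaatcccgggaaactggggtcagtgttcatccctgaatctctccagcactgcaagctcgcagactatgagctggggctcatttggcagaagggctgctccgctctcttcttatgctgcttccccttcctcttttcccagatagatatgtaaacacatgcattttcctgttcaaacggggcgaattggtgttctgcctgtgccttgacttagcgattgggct

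Zc3h12d (a zinc finger protein that restrains inflammatory messages), chr10:7832220-7832519, plus strand, with a KLF and SP box at -189 and an interferon element at -152.

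Zc3h12d: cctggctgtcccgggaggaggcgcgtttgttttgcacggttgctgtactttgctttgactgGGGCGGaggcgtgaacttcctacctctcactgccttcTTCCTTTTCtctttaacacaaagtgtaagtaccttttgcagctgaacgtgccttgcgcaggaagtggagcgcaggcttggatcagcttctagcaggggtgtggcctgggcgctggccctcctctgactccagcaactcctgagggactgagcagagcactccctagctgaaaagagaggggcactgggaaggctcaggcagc

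Adcy7 (an adenylyl cyclase, which makes cyclic AMP), chr8:88293954-88294253, plus strand, with a KLF and SP box at -30 and an NF-kB site at 20.

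Adcy7: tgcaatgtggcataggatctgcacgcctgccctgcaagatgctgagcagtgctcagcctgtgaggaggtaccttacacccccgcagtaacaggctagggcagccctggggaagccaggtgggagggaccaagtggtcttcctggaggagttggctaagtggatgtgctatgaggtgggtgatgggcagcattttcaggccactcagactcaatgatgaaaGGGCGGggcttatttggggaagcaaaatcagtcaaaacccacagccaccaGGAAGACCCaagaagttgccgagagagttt

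Closed regions were peaks of low to middle strength in untreated cells. Their median pileup was 62 and 64 reads in the WT untreated libraries and 49 and 54 reads in the KO untreated libraries, over a range of 25 to 287 reads. Regions called in all 8 libraries had medians of 144, 150, 107 and 121 reads in the same order. Regions called in all 4 untreated and 1 to 3 LPS libraries, of which there were 6005, lay close to the closed regions at 68, 70, 50 and 56 reads. Expressed as the percentile of a peak's -log10 p within its own list, averaged over the untreated lists, the median closed region stood at 28.5 (interquartile range 20.4 to 37.8) and the strongest at 75.5. The median was 67.9 for regions called in all 8 libraries and 34.1 for those kept in part. Only 112 closed regions (8.28%) were above percentile 50. The rule used these peaks to choose the regions, so the levels describe the set and support nothing about LPS.

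**Figure D1:**
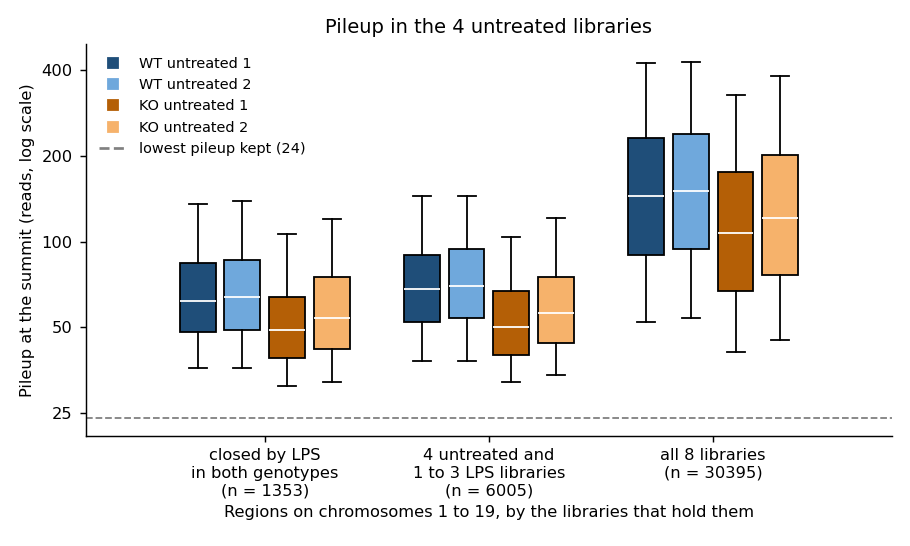
Pileup at the summit in reads (log scale) in each untreated library for closed regions, regions called in 4 untreated and 1 to 3 LPS libraries, and regions called in all 8. Boxes show the median and quartiles and whiskers the 5th and 95th percentiles over regions. Medians of closed regions run from 49 to 64 reads, against 107 to 150 for regions called in all 8.

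Regions just outside the rule were weaker or of like strength. Another 1339 autosomal regions were called in 3 untreated libraries and no LPS library, at a median percentile of 18.0 and a median untreated pileup of 44 reads, against 56.5 reads for the closed regions. The missing library was KO untreated replicate 1 for 700 of them, KO untreated replicate 2 for 420, WT untreated replicate 1 for 128 and WT untreated replicate 2 for 91. A further 1177 regions were called in all 4 untreated libraries and 1 LPS library, at percentile 29.9, with 55.5 reads in untreated cells and 40 reads in that LPS library. The extra call came from WT LPS replicate 1 for 649, WT LPS replicate 2 for 329, KO LPS replicate 1 for 145 and KO LPS replicate 2 for 54. Misses were thus most frequent in the shortest untreated list and extra calls most frequent in the longest LPS list.

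In WT cells alone, 4511 autosomal regions (5.99%) were called in both untreated and neither LPS library. The KO libraries alone gave 4174 such regions (5.55%). The closed regions are the overlap of these lists, 30.0% of the WT list and 32.4% of the KO list. In the opposite direction, 3658 autosomal regions (4.86%) were called in all 4 LPS libraries and no untreated library, and they are called opened regions below. Their pileup in the LPS libraries had medians of 75 and 66 reads in WT and 59.5 and 54 reads in KO. The X chromosome held another 22 regions with the closed pattern, which the rule leaves out.

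A missing peak is a call and not a measured level, since the LPS lists give no value where no peak was kept. For each closed region, the pileup that would reach the strictest lowest -log10 p of the 8 lists (7.93) was worked out at its own mean untreated background. This needed pileup had a median of 28 reads and ranged from 23 to 126. The lowest of a region's 4 untreated pileups was 1.47 times the needed value in the median (interquartile range 1.31 to 1.71). It was at least 1.5 times the needed value at 621 regions (45.9%) and at least 2 times at 144 (10.6%), and it was below 1.2 times at 133 (9.83%). Of the 144, 112 lay over 1 kb from any region held by an LPS library.

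Peaks in a list are numbered in order, and a skipped number marks a numbered peak that the list does not hold. What took such peaks out is not given in the sources used here. At 1328 closed regions (98.2%), the numbers of the neighbouring peaks ran on without a gap in all 4 LPS lists. The other 25 regions had a skipped number beside them in at least 1 LPS list, in 84 pairs of region and list. In untreated cells the 4 summits of a closed region lay within 54 bp of each other in the median, against 46 bp for regions called in all 8. They fell within 100 bp at 85.6% of closed regions and at 86.9% of regions called in all 8.

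The 10 strongest closed regions had pileups far above the needed level in every untreated library. Pileup was lower in the KO lists over the genome, with a median log2 ratio of KO over WT of -0.33 at regions called in all 8. The order of the genotypes is therefore given on pileup and on fold enrichment, the pileup over local background, as a description of 2 libraries a group. Fold enrichment as deposited was also lower in KO, at 67.8% of the 38479 regions called in all 4 untreated libraries (median log2 difference -0.09). WT above KO on both scales thus does not by itself mark a region out. The share of all regions with that order was not counted. The strongest lay inside Zranb3, a DNA translocase that acts at stalled replication forks, on chromosome 1 from 128013885 to 128014345, 60.0 kb from a gene end. Its pileup was 207 and 181 reads in the WT untreated and 129 and 163 reads in the KO untreated libraries, where 43 reads were needed. All 4 values were at least 3 times the needed pileup. Both WT pileups were above both KO pileups, but the fold enrichments, 10.5 and 9.76 in WT and 8.70 and 10.7 in KO, overlapped.

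The next strongest was at the end of Mapkapk2, which encodes a kinase that acts below p38 in the control of cytokine messages, on chromosome 1 from 131096789 to 131097247. It had 245, 217, 149 and 153 reads (WT replicates 1 and 2, then KO replicates 1 and 2, the order used below), and its summit was 0.848 kb from the start site. WT was above KO on both scales, and a region held by an LPS library lay 0.414 kb away. The third was 1.12 kb from the end of Tmem86a, a lysoplasmalogenase of lipid metabolism, on chromosome 7 from 47055709 to 47056177, with 207, 205, 149 and 214 reads. Here the KO replicates lay on either side of both WT values, also in fold enrichment.

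Others of the 10 lay inside genes or kilobases away. A region inside Vti1a, a SNARE protein of vesicle traffic, on chromosome 19 from 55544429 to 55544874, had 206, 204, 128 and 149 reads. Another, 21.2 kb from Pex5, the import receptor of peroxisomes, on chromosome 6 from 124375368 to 124375943, had 160, 150, 115 and 110 reads. WT was above KO on both scales at Vti1a and on pileup alone at Pex5.

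Tmprss7, a membrane serine protease, held a region on chromosome 16 from 45657556 to 45658037 with 129, 122, 76 and 127 reads. Fat3, an atypical cadherin, held 1 on chromosome 9 from 16305463 to 16305907 with 186, 194, 134 and 136 reads. Gfra2, a receptor for GDNF family ligands, held 1 on chromosome 14 from 70927404 to 70927863 with 117, 135, 94 and 91 reads. The tenth, inside Rab31, a small GTPase of traffic between the Golgi and endosomes, on chromosome 17 from 65768390 to 65768877, had 179, 196, 125 and 128 reads. The groups overlapped on both scales at Tmprss7, and WT was above KO on both at the other 3. All 10 were also closed regions under each alternative way of calling listed in the closing section. They were picked as the strongest, and leaving out libraries relaxes the rule, so this supports nothing further.

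**Figure D2:**
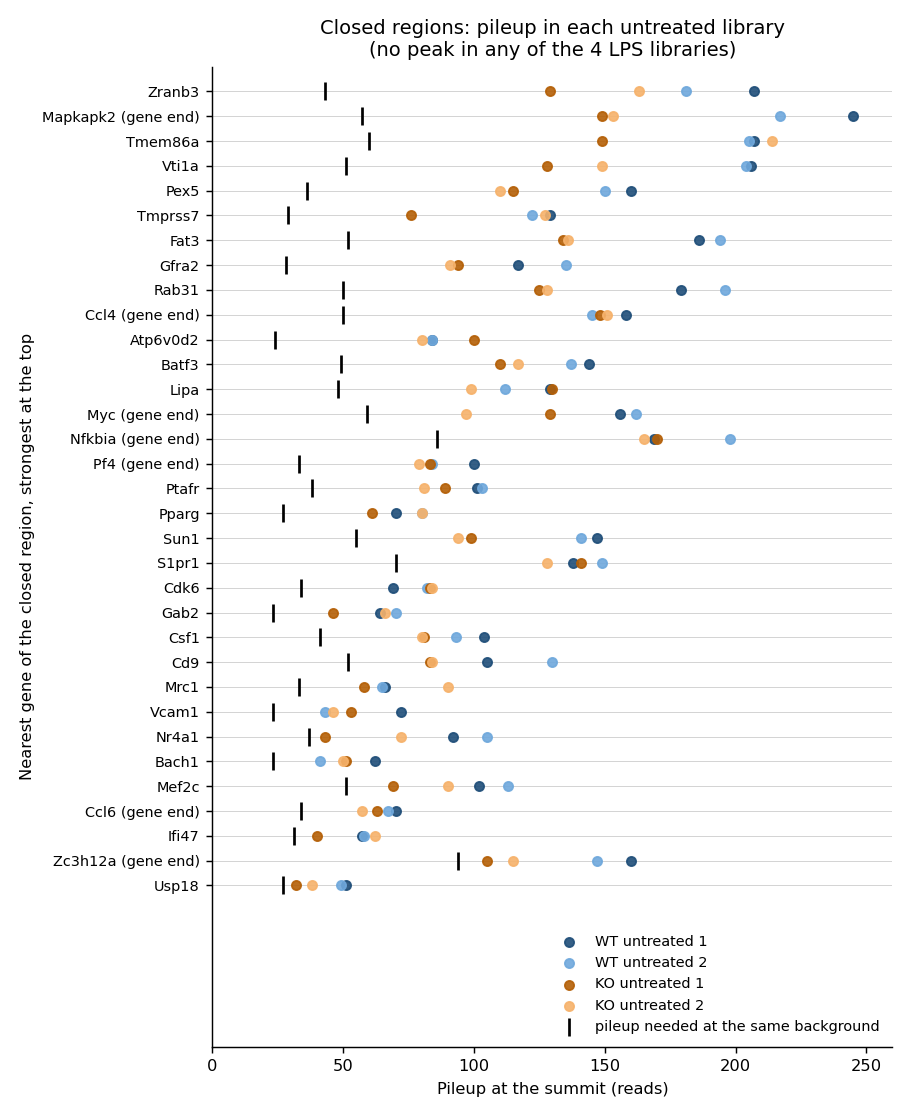
Pileup in reads at named closed regions assigned to a gene (rows, labelled by nearest gene and ordered by mean percentile) in the 4 untreated libraries, with a black tick at the pileup needed for a peak at the same background. Values of 1 region often lie close together, and the lowest values at Zc3h12a, Nr4a1 and Usp18 come nearest to the tick in proportion to it.

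Most closed regions lay away from gene ends. The summit was within 1 kb of the end of a protein-coding gene at 117 of 1353 (8.65%, exact 95% interval 7.20 to 10.3, counting error only), against 4.65% of opened regions, 28.9% of regions called in all 8, 13.4% of those kept in part and 17.3% of all autosomal regions. Another 688 (50.9%) lay inside a gene and 548 (40.5%) outside. Measured to RefSeq start sites, which are given for most genes outside chromosome 18, 78 of 1308 (5.96%) were within 1 kb, against 2.52% of opened regions and 25.9% of regions called in all 8. The median distance to a start site was 31.0 kb for closed, 36.8 kb for opened and 15.4 kb for regions called in all 8. Closed regions were thus more distal than the regions called throughout and less so than opened ones, and regions are not replicates, so no test was made.

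**Figure D3:**
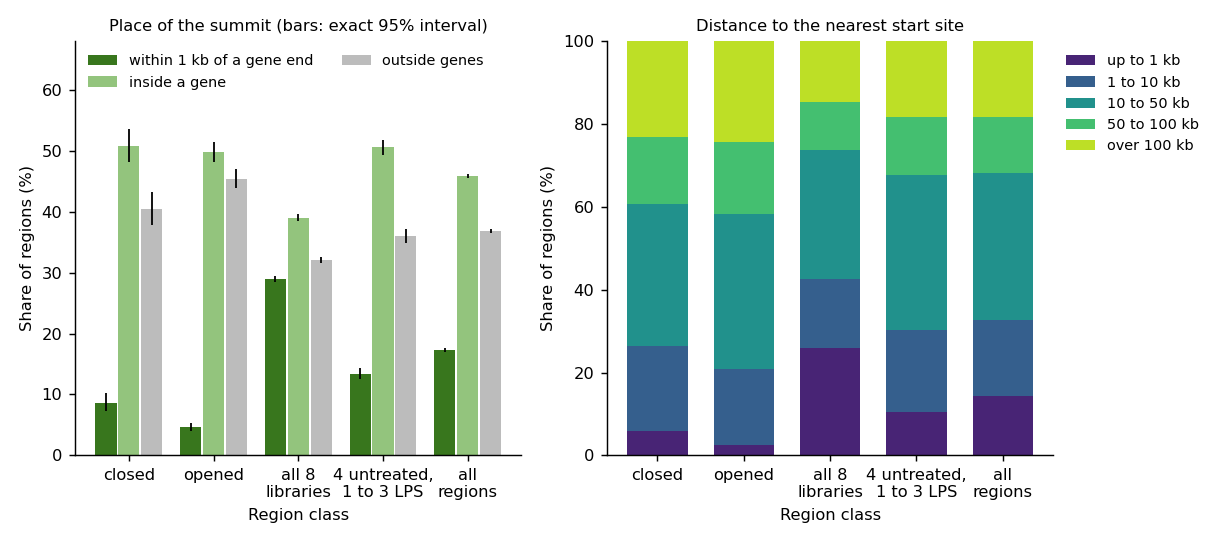
Left, share of regions in percent with the summit within 1 kb of a gene end, inside a gene or outside, by class, with exact 95% intervals. Right, distance from the summit to the nearest start site in 5 bands. The gene-end share is 8.65% for closed, 4.65% for opened and 28.9% for regions called in all 8.

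Closed regions were narrow, with a median width of 371 bp (interquartile range 331 to 416), against 390 bp for opened regions and 540 bp for those called in all 8. These are widths after merging, and regions called in all 8 merge peaks of more lists. For the strongest single peak of a region, medians were 309.5, 329.75 and 452.5 bp in that order (LPS lists for opened regions, untreated lists otherwise). Closed regions were spread over the autosomes at 1.42% of regions on chromosome 19 to 2.23% on chromosome 8. Most lay near a region that was called under LPS. The nearest region held by any LPS library was 3.14 kb away in the median, within 1 kb for 324 (23.9%) and within 10 kb for 1065 (78.7%). This distance was not worked out over all regions, so it is not read as particular to closed regions. For opened regions, the matching distance to a region held by an untreated library was 5.08 kb, with 16.5% within 1 kb. The nearest region called in all 8 libraries was 6.44 kb from a closed region in the median. It was within 1 kb for 204 closed regions (15.1%) and within 10 kb for 832 (61.5%). The nearest opened region was 151 kb away in the median, and it was within 10 kb for 89 closed regions (6.58%). The nearest other closed region was 254 kb away in the median and within 10 kb for 93 (6.87%), and opened regions, which are more numerous, were 59.3 kb from each other.

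Within 50 kb of a protein-coding gene, 1171 closed regions (86.5%) were assigned to 1016 genes, which is 6.84% of the 14855 genes with any region. Of all regions so assigned, 1.73% were closed. Most of the 1016 genes, 893, had 1 closed region, 95 had 2, 25 had 3, and 3 had more. Genes with a closed region were rich in regions of every kind, with a median of 9 regions a gene against 3 over all genes. A region called in all 8 was also assigned to 909 of them (89.5%, against 79.9% of all genes), and an opened region to 267 (26.3%, against 14.8%). These shares were not corrected for the number of regions a gene has.

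Xylt1, which encodes the enzyme that starts glycosaminoglycan chains on proteoglycans, had the most closed regions, 5 of its 21 regions, and no opened one. The strongest of the 5, on chromosome 7 from 117474280 to 117474659, had 154, 182, 140 and 143 reads, and the weakest, from 117463873 to 117464370, had 46, 59, 38 and 42. Ankrd11, a chromatin-bound regulator of transcription, had 4 closed and 3 opened regions and 10 called in all 8 among 30. Pkib, an inhibitor of cyclic AMP-dependent protein kinase, had 4 closed of 19, and the weakest of these was 0.1 kb from a start site with 43, 54, 29 and 32 reads. So the genes with the most closed regions also kept regions that were called in all 8 libraries, 6 at Xylt1 and 4 at Pkib.

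Another 8 genes are named among those with 3 closed regions. They were Fat3 (of 33 regions), Ubac2 of the endoplasmic reticulum (of 21), Dennd1b, an activator of Rab GTPases (of 20), the palmitoyltransferase Zdhhc14 (of 29), Mthfs of folate metabolism (of 12), Elmo1, which helps phagocytes engulf and move (of 49), Lhfpl2 (of 27) and Mtss1, a regulator of actin and membrane shape (of 23). At Dennd1b the strongest region had 123, 111, 75 and 75 reads, higher in WT, while its fold enrichments of 11.2, 8.76, 10.1 and 9.18 overlapped. Among these 8 genes only Dennd1b and Elmo1 also had an opened region, 1 each. The gene end nearest to each of the 3 Ubac2 regions was that of Gpr183, at 27.7, 13.6 and 17.6 kb.

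Genes of 18 lists, chosen with earlier results of these data in view, held 63 closed regions at 51 genes, 30 of them inside a gene, 26 outside and 7 at a gene end. Pileups ran from 30 to 245 reads. No list was tested for enrichment, and each share is read beside the 1.73% of all assigned regions that were closed and the 6.84% of genes with a closed region. For opened regions the matching references are 3093 of the 67599 assigned regions and 14.8% of genes. Gene shares were not corrected for the number of regions a gene has, so they are not like for like. The Toll-like receptor and NF-kB list, for example, had 421 regions at 43 genes, against 67599 regions at 14855 genes over all.

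In the Toll-like receptor and NF-kB pathway, which senses LPS and carries its signal, 11 of 43 genes with a region had a closed one (25.6%), and 13 of the 421 regions of the list were closed (3.09%). In the same list 19 genes had an opened region, and 44 regions (10.5%) were opened. Among receptors, the genes were Tlr3, Tlr4 and Cd180 with its partner Ly86, and among kinases Irak2, Mapk14 and Mapkapk2. Nfkb1, Nfkbia, Socs3 and Zc3h12a, the NF-kB subunit gene and feedback inhibitors, made up the rest.

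Nfkbia encodes the inhibitor that holds NF-kB in the cytoplasm and is itself induced by it. Its closed region, on chromosome 12 from 55491798 to 55492187 and 0.719 kb from the start site, had 169, 198, 170 and 165 reads where 86 were needed. All 4 were high, and the genotypes overlapped on pileup. Fold enrichments were 3.48 and 3.81 in WT and 4.44 and 4.06 in KO, so KO was above WT on that scale. A region held by an LPS library began 0.118 kb away, and the gene also had 3 opened regions and 7 called in all 8 among its 15. The lost peak is thus 1 element of a locus that stayed open around it.

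Zc3h12a encodes an RNase that degrades cytokine messages. Its region, on chromosome 4 from 125117989 to 125118363, was 0.219 kb from a gene end but 9.69 kb from the nearest start site. It had 160, 147, 105 and 115 reads on a high background, so that 94 were needed, and its mean percentile was 20.6. WT was above KO on both scales, and the KO pileups were little above the needed level.

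Among inflammatory cytokines, chemokines and enzymes, 3 of 31 genes had a closed region (3 of 219 regions, 1.37%), while 13 had an opened one (23 regions, 10.5%). The 3 were the chemokine genes Ccl4, Ccl6 and Cxcl3. The Ccl4 region, on chromosome 11 from 83663553 to 83663932 and 0.916 kb from a gene end, had 158, 145, 148 and 151 reads, which overlapped between genotypes. Its fold enrichments were 6.70 and 5.61 in WT and 8.53 and 8.09 in KO, with KO above WT. The Ccl6 region, whose start is printed above, had 70, 67, 63 and 57 reads, higher in WT, and fold enrichments of 5.83, 5.21, 5.70 and 5.09, which overlapped. A region held by an LPS library lay 0.264 kb from the first and 0.294 kb from the second. In the interferon response list, 2 of 41 genes had a closed region (0.909% of 220 regions). They were Ifi47, an inducible GTPase, with 57, 58, 40 and 62 reads, and Usp18, which removes the ubiquitin-like ISG15, with 51, 49, 32 and 38 reads. Both of these regions were weak, and 12 genes of the list had an opened region.

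Transcription factors of the macrophage lineage had 9 closed of 395 regions (2.28%) at 7 of 27 genes, against 21 opened regions at 10 genes. The 7 were Cebpa, Cebpd, Runx1, Mef2a, Mef2c, Nr4a1 and Bach1. Nr4a1, an orphan nuclear receptor of monocytes, had 92, 105, 43 and 72 reads at a region 1.13 kb from a gene end. Mef2c, a MADS-box factor, had 102, 113, 69 and 90 reads inside the gene, and Bach1, a repressor of haem genes, had 62, 41, 51 and 50 reads. WT was above KO on both scales at Nr4a1 and on pileup alone at Mef2c, and the genotypes overlapped on both at Bach1.

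Growth factor and colony-stimulating factor signalling had 6 closed of 257 regions (2.33%), at Csf1, Igf1r, Gab2, Pik3r1 and Grb2. Csf1 encodes the cytokine that keeps macrophages alive, and its region, 21.0 kb away, had 104, 93, 81 and 80 reads. Gab2, an adaptor of receptor signalling, had 64, 70, 46 and 66 reads. WT was above KO on pileup alone at Csf1, and the genotypes overlapped on both scales at Gab2.

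Surface and phagocytic receptors had 7 closed of 225 regions (3.11%) at Itgax, Mrc1, Cd36 and Cd9, and 5 opened regions. Cd9, a tetraspanin, had 3 closed regions, the strongest with 105, 130, 83 and 84 reads, and the mannose receptor gene Mrc1 had 66, 65, 58 and 90 reads. Chemoattractant receptors had 4 closed of 141 regions (2.84%), at Ccr3, S1pr1 and Ptafr. S1pr1, a receptor for sphingosine-1-phosphate, had 138, 149, 141 and 128 reads 17.8 kb from the gene. Ptafr, the receptor of platelet-activating factor, had 101, 103, 89 and 81 reads. On both scales, genotypes overlapped at Mrc1 and S1pr1 and WT was above KO at Cd9 and Ptafr.

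Cholesterol and lipid handling had 7 closed of 241 regions (2.90%), at Pparg, Srebf2, Scarb1, Soat1, Lipa and Plin2. Lipa, the lysosomal acid lipase, had 129, 112, 130 and 99 reads inside the gene, and Pparg, a nuclear receptor for fatty acids, had 70, 80, 61 and 80 reads 17.6 kb away. Genotypes overlapped at both genes on both scales. The lysosome and phagosome list had 4 closed of 154 regions (2.60%) at Ctsk, Atp6v0d2 and Rab31. Atp6v0d2, a subunit of the proton pump of lysosomes, had 84, 84, 100 and 80 reads at a region 19.8 kb away, with the KO replicates on either side of WT.

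Of the cell cycle and growth list, 4 of 177 regions (2.26%) were closed, at Myc, Ccnd3 and Cdk6. The region of Myc, a growth-promoting transcription factor, was 0.159 kb from a gene end, on chromosome 15 from 61984868 to 61985753. It had 156, 162, 129 and 97 reads, higher in WT, and fold enrichments of 5.41, 4.76, 5.73 and 4.52, which overlapped. Cdk6, a kinase of the G1 phase, had 69, 82, 83 and 84 reads inside the gene, with KO just above WT, also in fold enrichment. In the nuclear envelope and lamina list 1 of 124 regions (0.806%) was closed. It lay 3.44 kb from Sun1, which couples the lamina to the cytoskeleton, with 147, 141, 99 and 94 reads, and WT was above KO on both scales.

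Marker genes of other cell types held 3 closed regions. There were none among the B cell, T and NK cell, neutrophil, and stem and progenitor lists (of 23, 18, 22 and 64 regions), and 1 each for dendritic cells (Batf3, 1 of 77 regions, 1.30%), erythroid cells and megakaryocytes (Pf4, 1 of 11, 9.09%) and stromal and endothelial cells (Vcam1, 1 of 84, 1.19%). These lists are too short for their shares to be read against 1.73%. Pileups were 144, 137, 110 and 117 reads at Batf3, 100, 84, 83 and 79 at Pf4 and 72, 43, 53 and 46 at Vcam1. Pf4 had 2 regions in all, neither called in all 8 libraries. The part of other cell types in these calls was not tested.

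**Figure D4:**
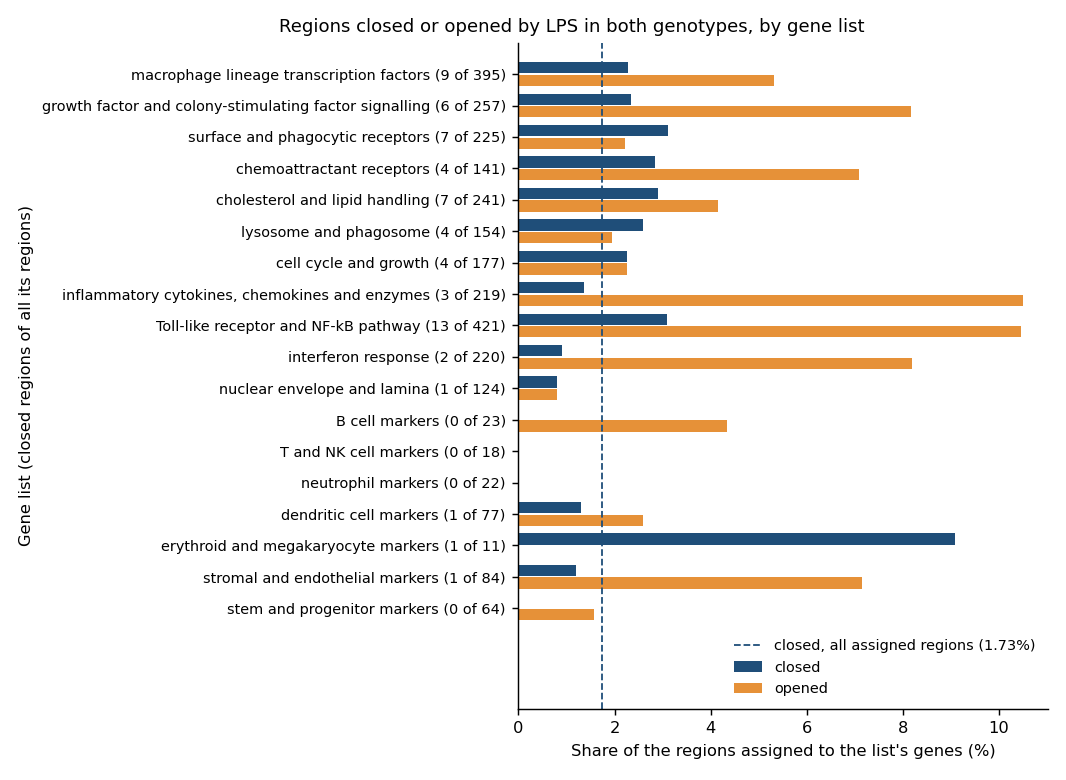
Share in percent of the regions assigned to each gene list that were closed (blue) or opened (orange), with closed and total regions in brackets and the share of closed regions among all assigned regions, 1.73%, as a dashed line. Closed shares run from 0 to 3.11% in lists of more than 11 regions, and opened shares up to 10.5%.

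At start windows, closed regions differed from opened ones in base composition and motifs, on few windows. The summit was in such a window at 42 of 1308 closed regions (3.21%), 29 of 3532 opened (0.821%) and 20.4% of regions called in all 8. The 43 windows hit by closed regions had a median GC content of 55.7% and 11 CpG dinucleotides, against 44.8% and 3 for the 30 windows of opened regions, 62.0% and 23 for regions called in all 8 and 52.7% and 7 over all 32851 windows. The AP-1 site TGANTCA was found, on either strand, in 3 of the 43 (6.98%), in 13 of the 30 (43.3%) and in 7.81% of all windows. The KLF and SP box GGGCGG was in 48.8% of closed, 23.3% of opened, 69.4% of those called in all 8 and 35.7% of all windows. The nuclear receptor element AGGTCA was in 16.3%, 36.7%, 11.1% and 16.3% in that order.

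Other motifs were at 3 or 4 closed windows each or fewer. The NF-kB site GGGNNTTCC was in 3 (6.98%, against 5.82% of all windows), the interferon element GAAANNGAA in 4 (9.30%, against 8.56%) and the E-box CACGTG in 3 (6.98%, against 7.15%). The PU.1 core GAGGAAGT was in 2 (4.65%, against 3.20%), and the C/EBP site TTGCNNCAA in 2 (4.65%, against 2.08%). MEF2 (CTAAAAATA) and CRE (TGACGTCA) letters were in none, against 0.517% and 1.79% of all windows. A match is a match of letters in a window and says nothing on binding. Sequence of the distal members was not used here. A weaker region at percentile 10.6, on chromosome 7 from 139957369 to 139957802, covered the hairpins of Mir202 and Mir7686.

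Genotype was compared in untreated cells, where the rule asks for a peak in all 4 libraries. This does not fall evenly on the genotypes. Among regions missed by 1 untreated library alone, the KO replicates were missing at 700 and 420 and the WT replicates at 128 and 91. Log2 fold enrichment over local background, centred on the median of each library, was fitted with limma (KO against WT, 2 libraries each) over the 38479 regions called in all 4 untreated libraries. The number called at a Benjamini-Hochberg adjusted p under 0.05 was 0 (0%), and 0 closed regions passed. At limma's unadjusted p under 0.05 there were 312 of the 1353 closed regions and 6961 of all 38479. The smallest adjusted p of a closed region was 0.0836. The median difference of closed regions was 0.04 log2 units centred (interquartile range -0.14 to 0.23) and turned to -0.13 with the enrichment as deposited. It was 0.07 and -0.09 over all regions tested. With a mean-variance trend, limma called 12 closed regions (0.887%, 8 higher and 4 lower in KO), against 0.915% of all regions. On recovered pileup it called 25 (1.85%, 23 higher and 2 lower), against 1.46%. On uncentred enrichment it called 6 (0.443%, 0 higher and 6 lower), against 0.535%. The direction of the calls thus turned with the scaling, and their share was near that of all regions.

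The largest differences went both ways. A region inside Snx8, a sorting nexin of endosomes, had fold enrichments of 3.41 and 3.48 in WT and 5.49 and 6.12 in KO, a centred log2 difference of 0.91 ± 0.11 (SE). Its pileup was 65 and 70 reads in WT and 87 and 103 in KO, so KO was higher on this scale too. Syngr1, a synaptogyrin of vesicles, differed by 0.91 and Atp6v0c, a proton pump subunit, by 0.89. In the other direction, a region 17.5 kb from Cmtm8 had enrichments of 11.2 and 11.7 in WT and 5.36 and 5.05 in KO, a difference of -0.98 ± 0.12 (SE). Dner, a Notch ligand, differed by -0.93 and Ubl3, a ubiquitin-like protein, by -0.80. These 6 were picked as the largest differences, so the lack of overlap between their groups comes with that choice and supports nothing further. Limma's adjusted p was 0.0836 or 0.0864 for each, and none passed.

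Ordered by mean enrichment, the lowest 339 closed regions had a median difference of 0.15 (89 lower in KO) and the highest 338 one of -0.08 (208 lower in KO). Weak regions enter only with a peak in every untreated library, a demand missed more often in KO. This split therefore cannot be read as a genotype effect that depends on strength. The same split over all regions was not made. The log2 ratio of recovered pileup, KO over WT, had a median of -0.28 at closed regions, -0.33 at regions called in all 8 and -0.34 at those kept in part. Closed regions thus shared the lower pileup of the KO lists with the rest of the peaks.

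**Figure D5:**
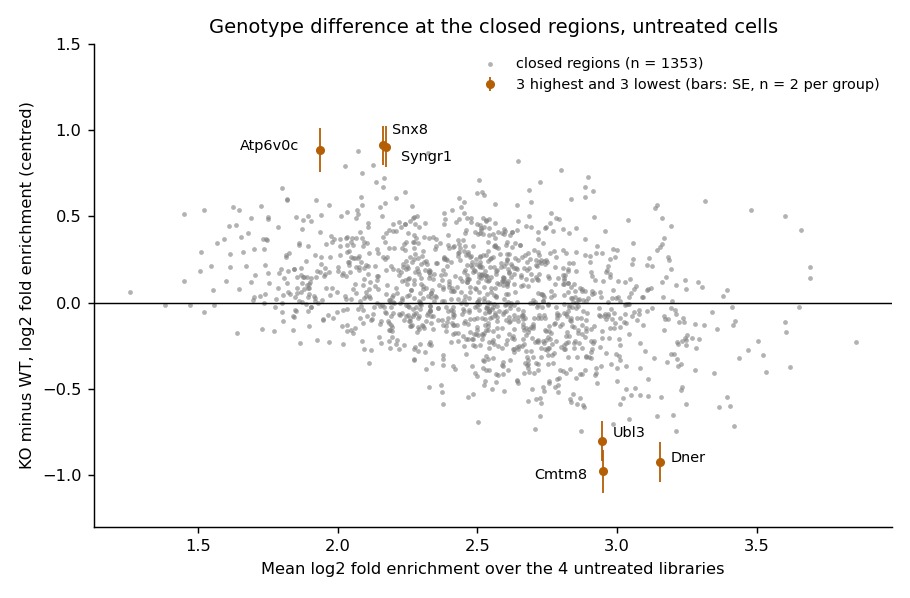
Centred log2 fold enrichment, KO minus WT, against the mean log2 fold enrichment of the 4 untreated libraries, 1 point for each closed region, with the 3 highest and 3 lowest marked with their SE. Points spread on both sides of 0, from -0.98 at Cmtm8 to 0.91 at Snx8, and fall slightly towards higher enrichment.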

How the data were processed

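Each of the 8 libraries came as 1 peak list, called separately for each replicate. Per the submitters' processing notes the tools were BWA 0.7.12 and MACS2 on mm10. The deposited score is the -log10 p multiplied by 10 and cut to a whole number. The deposited fold enrichment is a ratio over local background within a library, and the authors' lists also hold -log10 p and -log10 q values and the summit's distance from the peak's start. The filter applied to the lists is not given in the sources used here. Read totals were not used, and depth is seen only through the recovered pileup and the flat background, which was 5.53 reads in each list. Intervals cover counting error of regions alone.

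Here, peaks were merged and counted, and a pileup was recovered within 0.01 in -log10 p from the Poisson tail. A region was assigned by the summit of its strongest untreated peak to the nearest protein-coding gene within 50 kb. Gene spans carry no strand, so gene ends (1 kb) were used and start sites added. The fit used limma 3.58.1 (R 4.3.3) and was tested on simulated data. Members and gene lists were chosen with earlier results of these data known. Named are the 10 strongest members, up to 12 genes with at least 3, up to 25 members at list genes plus those at their ends, and 6 genotype extremes, of which 1 member and 1 gene are not reported here. The other list genes are named because their list's count includes them. The 8 printed starts were chosen after their values were seen. Of 415 list genes, 412 matched the RefSeq table (GRCm38.p6).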

Additional observations from a re-analysis of the deposited data

How the results depend on the processing

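The count of 1353 closed regions was 1341 with peaks up to 100 bp apart merged, 1507 where peaks had to cover 50% of a region and 1395 when every list was held to a minimum of 20 in -log10 p, though only 41.2% of the 1353 were among the last. It moved further, to 558, with that minimum in the untreated lists only, to 2056 with the 44504 strongest peaks of each list (67.8% of the 1353 among them), and to 4520 and 4274 when the WT or KO lists were merged and counted alone (4511 and 4174 in the merge of all 8). Leaving out 1 library gave 1407 to 2056, the highest without KO untreated replicate 1. The share at a gene end was 6.09% with the minimum of 20 in untreated lists, 5.10% within 500 bp, 5.96% by start sites (added after seeing the data) and 8.67 to 9.68% without 1 library. The share assigned to a gene was 78.9% within 20 kb. In the genotype fit 6 closed regions were called on uncentred values (all lower in KO; 0.535% of all regions called), 25 on recovered pileup (23 higher, 2 lower; 1.46%) and 12 with a mean-variance trend (8 higher, 4 lower; 0.915%), 0 with a mean -log10 p of at least 20, 0 to 0 without 1 library and 0 with the replicate block. Why these settings differ was not tested. Replicate numbers did not pair the untreated libraries (correlation of deviations -0.013). Lists of calls limit what can be said: a level under LPS is not given, and the lowest kept pileup of 23 or 24 reads hides smaller changes.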
